A study of Mus musculus with 12 samples.

Results

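The interferon regulatory factor (IRF) family was followed in follicular (FO) B cells of the mouse spleen through the rows of 8 genes, Irf1, Irf2, Irf3, Irf4, Irf5, Irf7, Irf8 and Irf9, out of 22561 genes in the count table. The genes were taken by symbol, and all 8 were among the 9431 genes that passed the filter on low counts and were tested. The FO B cells came from wild-type C57BL/6 mice aged 10 weeks and were sorted. They were either left unstimulated or stimulated for 12 h with IFNα, a type I interferon, with CpG, the DNA agonist of Toll-like receptor 9 (TLR9), or with CpG + IFNα, and each of these 4 conditions had 3 samples. The samples were made to find which pathways change the level of IRF4 in FO B cells ahead of their turning into plasma cells. The labels number the samples of a condition 1 to 3 without saying whether they came from separate animals, so that p-values measure the spread between these samples, which may in part be technical. A culture of 12 h is not given for the unstimulated cells in the sources used here, so that in every comparison with unstimulated cells the stimulus and the culture cannot be told apart.

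RNA was measured by bulk RNA barcoding sequencing, which tags the 3′ end of each transcript with a unique molecular identifier (UMI) and counts UMIs per gene. The total ranged from 922450 to 1103064 counts in unstimulated samples, from 1067324 to 1689570 with IFNα, from 1393018 to 1985810 with CpG and from 1884673 to 2923865 with CpG + IFNα. Levels are given as normalized CPM, the count divided by the library total after scaling between samples and put on a common total. Genes were called differentially expressed (DEG) where edgeR's quasi-likelihood test, fitted to all 12 samples, gave an adjusted p under 0.1 (Benjamini-Hochberg, over 9431 genes) together with a change of more than 2-fold. All 5 B cell markers, such as Ms4a1, were present in every condition, and their summed level was between 5780 and 6930 CPM without CpG and between 730 and 991 CPM with CpG. Markers of T cells summed to at most 3.64 CPM in any sample. In bulk samples, fewer cells of a type and less RNA per cell cannot be told apart.

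IRF proteins share a DNA-binding domain that reads GAAA repeats. The interferon receptor activates the complex ISGF3, in which IRF9 binds DNA at interferon-stimulated response elements (ISREs), and this complex turns on antiviral genes and Irf7. IRF3, IRF5 and IRF7 are activated by kinases downstream of nucleic acid sensors and drive interferon and cytokine genes. IRF1 is an activator and IRF2 largely a repressor on overlapping sites. IRF4 and IRF8 are the lymphoid members, which bind weakly alone and act with partners such as PU.1, Spi-B and BATF, and in B cells a high level of IRF4 is required to become a plasma cell.

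The 8 genes lie on 6 chromosomes of the GRCm38 build, and all are annotated as protein-coding in GENCODE M21. Irf7 spans chr7:141262706-141266481 on the minus strand and Irf3 spans chr7:44997648-45002848 on the plus strand. Irf2 (chr8:46739732-46847458) and Irf8 (chr8:120736358-120756694) share a chromosome, and Irf1 (chr11:53770014-53778374), Irf4 (chr13:30749226-30766976), Irf5 (chr6:29526625-29541871) and Irf9 (chr14:55603571-55610030) are each alone on theirs. The last bases of Irf7 and Irf5 overlap genes of the other strand, Phrf1 over 45 bases and Tnpo3 over 1045 bases. Since the setting for strand in the counting is not given in the sources used here, reads there may be shared. Phrf1 had a log2 fold change of 0.10 with IFNα and -0.02 with CpG against unstimulated cells, and Tnpo3 had -0.17 and 0.95. Rnf31 overlaps Irf9 over 123 bases on the same strand, away from the 3′ end of Irf9, and had log2 fold changes of 0.84 with IFNα and -1.59 with CpG. Irf8 lies wholly within Gm20388, a longer annotation on the same strand that has no row of its own in the count table.

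Short elements in the promoters are shown because interferon and TLR9 signals can act on genes through such elements. The window was 250 bases before to 50 bases after each start site in RefSeq (GRCm38.p6), and the 8 genes had 11 such windows among 32851. Both strands were searched for the ISRE core (GAAA, 2 bases of any kind, GAAA), the ETS-IRF composite element (GGAA, 2 bases, GAAA) and the NF-κB word (GGGA, 4 bases, CC). The share of all windows that hold them was 3.44%, 2.72% and 20.7%. Irf2 held the ISRE core at position -241 from its start site, overlapped by the composite element. The NF-κB word was in windows of Irf1, Irf4 and Irf8. In the 30 bases shown for 1 match of each gene and word, on the strand of the gene, capitals mark the match.
Irf2, ISRE core, chr8:46739495-46739524: tggggaagtGAAAATGAAAttgacttttcc
Irf2, ETS-IRF composite, chr8:46739495-46739524: tggGGAAGTGAAAatgaaattgacttttcc
Irf1, NF-κB word on the other strand, chr11:53769991-53770020: agtccgggccGGGGAATCCCgctaagtgtt
Irf4, NF-κB word, chr13:30749041-30749070: tgtctgaagtGGGACAGCCCttgacccggt
Irf8, NF-κB word, chr8:120736290-120736319: ctctgcgcgcGGGACCCGCCttctcccccg
The windows of Irf3, Irf5, Irf7 and Irf9 held none of the 3 words, which says only that these letters are not in these windows. A match describes the sequence and was not tested as a binding site.

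Each stimulus gave a different make-up of IRF transcripts. The 8 genes summed to 1790 ± 85.2 CPM without a stimulus, 3630 ± 305 CPM with IFNα, 1150 ± 70.2 CPM with CpG and 1500 ± 33.7 CPM with CpG + IFNα (mean ± SD, n = 3). UMI counts of 3′ ends do not grow with transcript length, so that the share of each gene among the 8 can be read within a sample. Irf8 held 41.7% ± 1.96 of the IRF counts in unstimulated cells and 61.1% ± 1.86 with CpG. With IFNα, Irf7 held 48.5% ± 1.21 and Irf8 14.5% ± 0.608. With CpG + IFNα, Irf8 held 38.5% ± 2.81, Irf7 21.1% ± 2.8, Irf4 11.9% ± 1.3 and Irf9 10.1% ± 1.69.

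**Figure D1:**
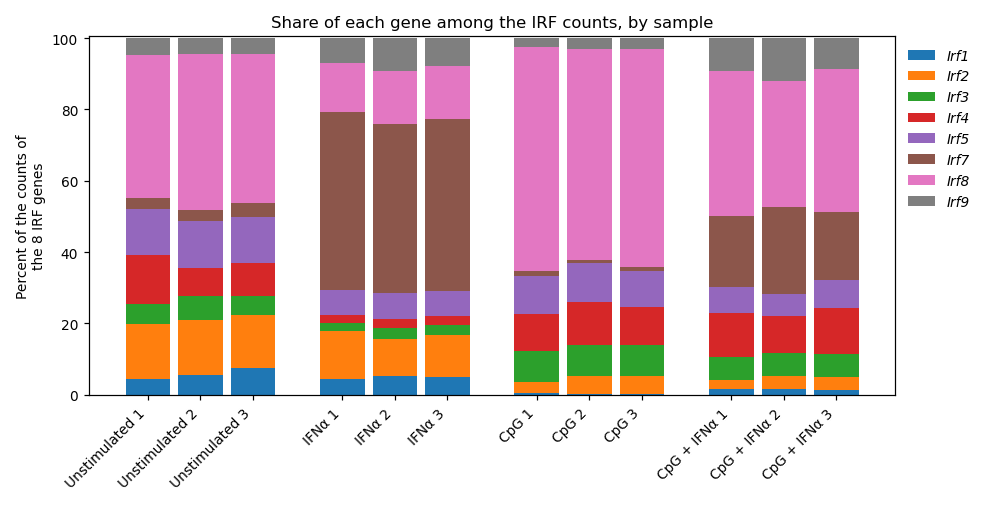
Share of each gene (y axis, percent of the counts of the 8 IRF genes) in each of the 12 samples (x axis), with stacked colours for the genes. Irf7 takes between 47.4% and 49.8% in the IFNα samples and at most 1.33% in the CpG samples, where Irf8 takes between 59.2% and 62.9%.

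IFNα against unstimulated cells asked what the interferon signal does without TLR9. Irf7 and Irf9 were up-regulated, which is 2 of 8 genes where 4.56% of all tested genes rose, and Irf4 was down-regulated, where 4.07% of all tested genes fell. Irf1, Irf2 and Irf8 passed the p-value threshold with a change smaller than 2-fold, and Irf3 and Irf5 did not pass it. The median log2 fold change was 0.40 over the 8 genes and 0.00 over all genes tested.

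CpG against unstimulated cells asked what TLR9 does without interferon. Irf1, Irf2, Irf7 and Irf9 were down-regulated, 4 of 8 genes, where 25.5% of all tested genes fell. None of the 8 was a DEG upward by edgeR or DESeq2, and 0 were higher at an unadjusted p under 0.05, where 20.1% of all tested genes rose by edgeR. The median log2 fold change was -1.13 over the 8 genes and -0.03 over all genes. In the same samples the B cell markers were lower with CpG by the ranges given above. Transcripts of mitochondria and ribosomal RNA made up 6.91% to 11.7% of counts in the samples without CpG and 3.86% to 6.4% in those with CpG. The part of either in the lower IRF levels was not tested.

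CpG + IFNα against CpG asked what the added interferon changes in TLR9-stimulated cells. Irf1, Irf7 and Irf9 were up-regulated, 3 of 8 genes, where 2.95% of all tested genes rose. None of the 8 was a DEG downward by edgeR or DESeq2, where 2.01% of all tested genes fell by edgeR, and 1, Irf8, was lower at an unadjusted p under 0.05. Irf4 and Irf8 passed the p-value threshold with changes smaller than 2-fold, in opposite directions. The B cell markers were between 900 and 991 CPM with CpG and between 730 and 871 CPM with CpG + IFNα.

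**Figure D2:**
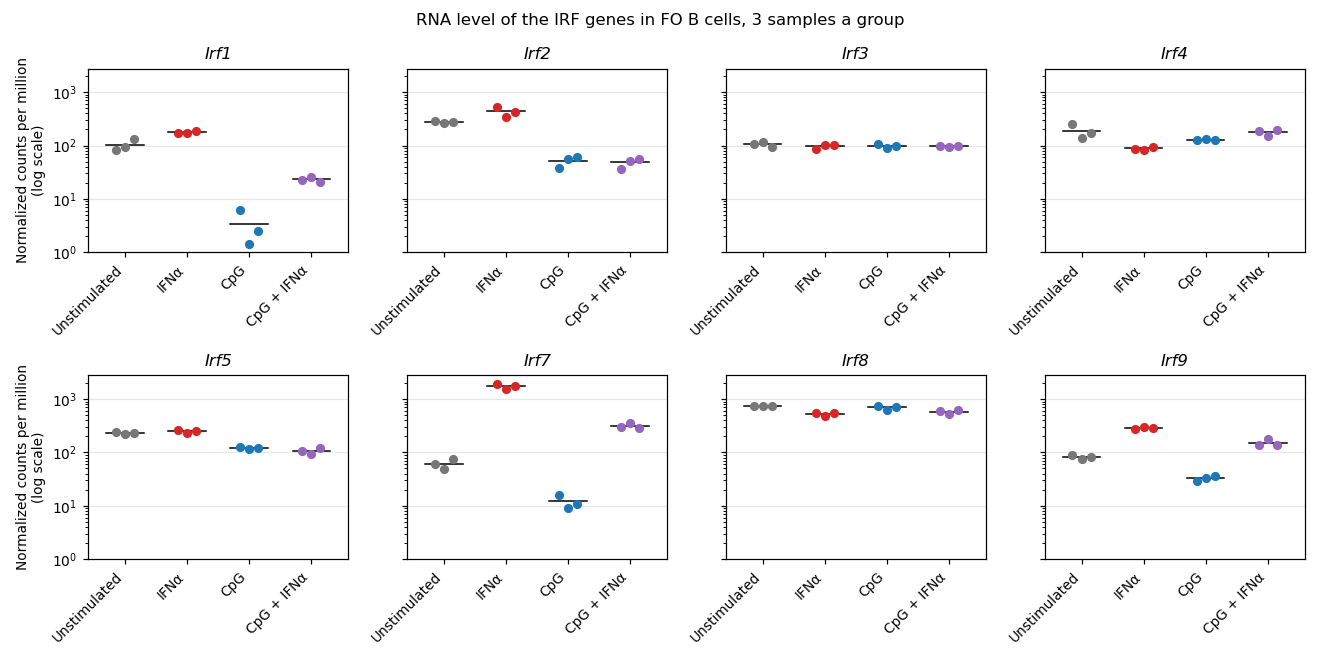
Normalized CPM (y axis, log scale) of each IRF gene in the 3 samples of each condition (points), with the mean as a line. Irf7 spans from 9.27 CPM in a CpG sample to 1937 CPM in an IFNα sample, and Irf3 stays between 85.8 and 114.5 CPM in all samples.

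Irf7, which amplifies the production of type I interferon, had the largest range of the family. It was at 60.1, 49.2 and 75.0 CPM in unstimulated samples 1 to 3, at 1937, 1560 and 1790 CPM with IFNα, at 16.0, 9.27 and 11 CPM with CpG and at 297, 358 and 291 CPM with CpG + IFNα. The 4 conditions did not overlap, in the order IFNα, CpG + IFNα, unstimulated, CpG. IFNα raised Irf7 28.4-fold over unstimulated cells, a log2 fold change of 4.83 ± 0.16 (SE, adjusted p = 2.15e-22). In the presence of CpG it raised Irf7 25.9-fold, a log2 fold change of 4.70 ± 0.22 (adjusted p = 4.92e-20). CpG lowered Irf7, with a log2 fold change of -2.35 ± 0.24 against unstimulated cells (adjusted p = 7.28e-11) and of -2.48 ± 0.12 when added to IFNα (adjusted p = 4.71e-18). The level with CpG + IFNα stayed above that of unstimulated cells by 2.35 ± 0.16 on the log2 scale (adjusted p = 3.28e-15).

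Irf9, the DNA-binding subunit of ISGF3, had the same order of conditions as Irf7 over a narrower range. Its levels were 90.1, 75.9 and 82.95 CPM in unstimulated samples, 271, 303 and 284 CPM with IFNα, 28.9, 32.8 and 36.4 CPM with CpG and 139, 178 and 137 CPM with CpG + IFNα. No condition overlapped another. Irf9 rose 3.44-fold with IFNα (log2 fold change 1.78 ± 0.13, adjusted p = 7.05e-13) and 4.62-fold when IFNα was added to CpG (2.21 ± 0.15, adjusted p = 3.28e-14). It fell with CpG against unstimulated cells, with a log2 fold change of -1.34 ± 0.17 (adjusted p = 1.14e-08). Between CpG + IFNα and IFNα the log2 fold change was -0.91 ± 0.11 (adjusted p = 1.62e-08), short of the 2-fold threshold, and it was -1.04 without CpG + IFNα replicate 2, the sample highest in Irf9 of its condition.

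Irf1, an activator induced by interferon and NF-κB, had the largest fall of the 8 genes with CpG against unstimulated cells. It was at 82.8, 93.1 and 135 CPM in unstimulated samples, at 171.5, 174 and 185 CPM with IFNα, at 6.14, 1.43 and 2.50 CPM with CpG and at 22.9, 26.2 and 20.6 CPM with CpG + IFNα. Behind the CpG values stand only 10, 2 and 5 counts, against 40 to 76 counts with CpG + IFNα and 87 to 153 in the shallower unstimulated samples. Against unstimulated cells the log2 fold change with CpG was -4.91 ± 0.40 (adjusted p = 1.04e-16), which is 0.0332 of the level. It ranged from -5.59 without CpG replicate 1 to -4.59 without CpG replicate 2. Irf1 rose 6.83-fold when IFNα was added to CpG (log2 fold change 2.77 ± 0.41, adjusted p = 8.34e-08) and had a log2 fold change of -2.14 ± 0.19 against unstimulated cells (adjusted p = 3.37e-12). Leaving out each sample in turn moved the rise between 2.48 and 3.47, the latter without CpG replicate 1. IFNα alone gave 0.76 ± 0.15 (adjusted p = 0.00029), a change of 1.7-fold that did not reach the threshold.

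Irf2, which occupies many of the sites that IRF1 uses, was low in both conditions with CpG. Its levels were 288, 261 and 272 CPM in unstimulated samples, 531, 345 and 433 CPM with IFNα, 37.5, 55.6 and 60.9 CPM with CpG and 37.1, 51.8 and 56.0 CPM with CpG + IFNα. The conditions with CpG overlapped each other and lay far below those without. Irf2 fell against unstimulated cells, with a log2 fold change of -2.41 ± 0.17 for CpG (adjusted p = 2.17e-14) and of -2.49 ± 0.16 for CpG + IFNα (adjusted p = 3.66e-15). Between CpG + IFNα and CpG the log2 fold change was -0.08, with a 95% confidence interval of -0.46 to 0.29 (adjusted p = 0.853). IFNα alone gave 0.66 ± 0.14 (adjusted p = 0.000604), 1.58-fold.

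Within a sample, the ratio of Irf1 to Irf2 counts was lowest with CpG, at 0.0769 ± 0.0758 (mean ± SD, n = 3). It was 0.380 ± 0.106 in unstimulated cells, 0.418 ± 0.0905 for IFNα and 0.497 ± 0.126 for CpG + IFNα. On the log2 scale the mean ratio with CpG + IFNα was above that with CpG by 3.13, which is 8.74-fold between geometric means, and the samples did not overlap. The difference was 3.91 without CpG replicate 1 and 2.57 without CpG replicate 2, and it rests on the 10, 2 and 5 counts of Irf1 with CpG. The ratio was chosen after the data were seen. An exact two-sided permutation test gave p = 0.1, the smallest that 3 samples against 3 allow (adjusted p = 0.2 over the 12 comparisons of 2 ratios). With IFNα the ratio overlapped that of unstimulated cells.

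Irf4, which is needed for plasma cells and for activated B cells, was highest in unstimulated and CpG + IFNα samples. Its levels were 257, 136 and 170 CPM in unstimulated samples, 86.8, 82.7 and 95.4 CPM with IFNα, 125, 132 and 126 CPM with CpG and 185, 154 and 198 CPM with CpG + IFNα. The CpG + IFNα samples were above every CpG sample and every IFNα sample, and they overlapped the unstimulated samples, which spread widest. CpG + IFNα against CpG gave a log2 fold change of 0.48 ± 0.14 (adjusted p = 0.0238), 1.4-fold, higher in 3 of 3 samples and short of the 2-fold threshold. The adjusted p of this difference ranged from 0.000818 to 0.106 over the other settings. Against IFNα, Irf4 rose 2.02-fold with CpG + IFNα (1.01 ± 0.16, adjusted p = 7.46e-07), at the edge of the threshold, and the log2 fold change was 0.97 without IFNα replicate 2 and 0.95 without CpG + IFNα replicate 3. Among the 5 called IRF genes of that comparison it was the only increase, where 18.7% of all tested genes rose, and Irf1, Irf2, Irf5 and Irf7 fell, where 25.5% of all tested genes fell.

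Irf4 fell with IFNα alone, with a log2 fold change of -1.10 ± 0.16 against unstimulated cells (adjusted p = 3.4e-06). Unstimulated replicate 1, at 257 CPM, carried part of this. Without it the log2 fold change was -0.80 (adjusted p = 0.000152) and Irf4 was no longer a DEG. With CpG the log2 fold change of Irf4 was -0.57 ± 0.15 (adjusted p = 0.00142), and it was -0.25 without the same sample (adjusted p = 0.119). CpG + IFNα and unstimulated cells did not differ beyond their spread, with a log2 fold change of -0.08 and a 95% confidence interval of -0.38 to 0.21. Other genes that respond early to handling or activation moved in the same comparison, since with IFNα Jun had a log2 fold change of -4.17 and Junb of -3.96 against unstimulated cells, and with CpG -2.81 and -4.15. Markers of myeloid cells summed to 4.41 to 21.4 CPM in unstimulated samples and to 0 with IFNα. The part of either in the Irf4 differences was not tested.

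Irf8, which acts in B cell development and in the germinal center reaction, was the most abundant IRF transcript in every condition but IFNα. Its levels were 743, 742 and 752 CPM in unstimulated samples, 538, 491 and 549 CPM with IFNα, 757, 634 and 719 CPM with CpG and 599.5, 521 and 613 CPM with CpG + IFNα. It was never a DEG. The samples with IFNα, alone or with CpG, lay below those without it. The log2 fold change was -0.51 ± 0.11 for IFNα against unstimulated cells (adjusted p = 0.00066) and -0.29 ± 0.11 for CpG + IFNα against CpG (adjusted p = 0.0763, between 0.0425 and 0.42 over the other settings). CpG and unstimulated cells did not differ beyond their spread (log2 fold change -0.08, 95% confidence interval -0.30 to 0.13), nor did CpG + IFNα and IFNα (0.14, -0.08 to 0.35).

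IRF4 and IRF8 can bind the same partners, and the ratio of their transcripts was set out by sample. It was chosen after the data were seen. The ratio of Irf4 to Irf8 counts was 0.346, 0.183 and 0.227 in unstimulated samples, 0.161, 0.169 and 0.174 with IFNα, 0.165, 0.208 and 0.175 with CpG and 0.308, 0.296 and 0.323 with CpG + IFNα. All 3 CpG + IFNα samples were above all IFNα and all CpG samples and lay within the range of the unstimulated samples. The geometric mean of the ratio was 1.7 times that with CpG and 1.84 times that with IFNα, each with an exact two-sided permutation p = 0.1, the smallest possible (adjusted p = 0.2 over the same 12 comparisons). These ratios need no scaling between samples.

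**Figure D3:**
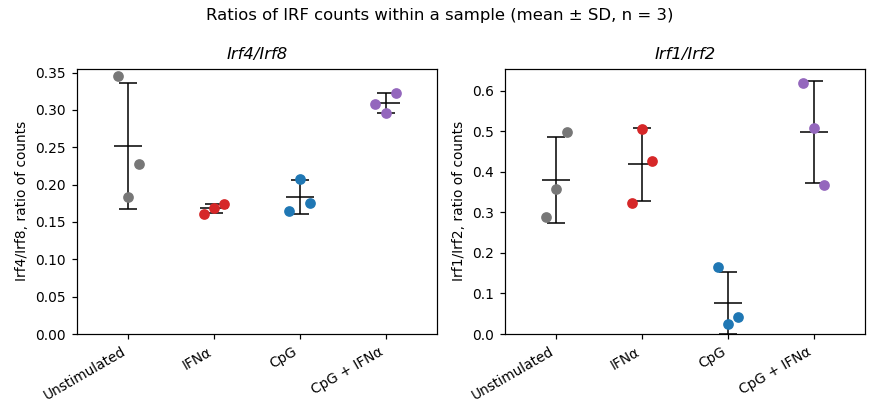
Ratio of Irf4 to Irf8 counts (left) and of Irf1 to Irf2 counts (right) in each sample (points), by condition on the x axis, with the mean and SD of 3 samples as bars. The CpG + IFNα samples sit between 0.296 and 0.323 for Irf4/Irf8, above the CpG samples at 0.165 to 0.208, and the CpG samples are the lowest for Irf1/Irf2.

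Irf5, which links Toll-like receptors to cytokine genes, was lower in the conditions with CpG. It was at 237, 224 and 229 CPM in unstimulated samples, 268, 235 and 256 CPM with IFNα, 128, 114 and 120 CPM with CpG and 106, 93.8 and 122 CPM with CpG + IFNα. Both conditions with CpG lay below both without it. The log2 fold change against unstimulated cells was -0.93 ± 0.12 with CpG (adjusted p = 3.04e-08), short of the threshold, and -1.11 ± 0.12 with CpG + IFNα (adjusted p = 5.55e-10), just past it. The latter call was lost without the filter on low counts and without CpG + IFNα replicate 2, at -0.99 in each. Between CpG + IFNα and CpG it was -0.18, with a 95% confidence interval of -0.42 to 0.07, and between IFNα and unstimulated cells it was 0.13 (-0.10 to 0.37). Tnpo3, whose annotation covers the last bases of Irf5 on the other strand, had log2 fold changes of 0.95 with CpG and 0.83 with CpG + IFNα against unstimulated cells. Sharing of reads between them was not tested.

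Irf3, the constitutive factor that sensors activate by phosphorylation, passed the p-value threshold in no pair of conditions. Its mean was 105 ± 10.5 CPM in unstimulated cells, 97 ± 9.82 CPM with IFNα, 98.7 ± 6.95 CPM with CpG and 96.1 ± 3.02 CPM with CpG + IFNα (SD, n = 3). The largest of its 6 pairwise log2 fold changes was -0.12 for CpG + IFNα against unstimulated cells, with a 95% confidence interval of -0.37 to 0.14 (adjusted p = 0.405). Adjusted p-values for the other pairs lay between 0.61 and 0.909.

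Against unstimulated cells, CpG + IFNα had Irf7 as the only up-regulated IRF gene, where 20.3% of all tested genes rose. Irf1, Irf2 and Irf5 were down-regulated, 3 of 8 genes, where 25.6% of all tested genes fell. Irf9 was 1.83-fold higher (log2 fold change 0.87 ± 0.14, adjusted p = 7.52e-07) and Irf8 had a log2 fold change of -0.37 ± 0.11 (adjusted p = 0.0026), both under the threshold. CpG against IFNα gave 5 down-regulated IRF genes, Irf1, Irf2, Irf5, Irf7 and Irf9, where 24.7% of all tested genes fell, with Irf7 at -7.17 ± 0.22 and Irf1 at -5.68 ± 0.39. The call of Irf5 (-1.06) was lost at -1 with scaling by library size only, without IFNα replicate 1 and without CpG replicate 2. No IRF gene was a DEG upward by edgeR or DESeq2 in CpG against IFNα, where 19.4% of all tested genes rose, while Irf4 (0.53 ± 0.16, adjusted p = 0.00444) and Irf8 (0.42 ± 0.11, adjusted p = 0.000808) were the 2 higher at an unadjusted p under 0.05. These comparisons share samples with those above, and their values are not separate evidence.

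**Figure D4:**
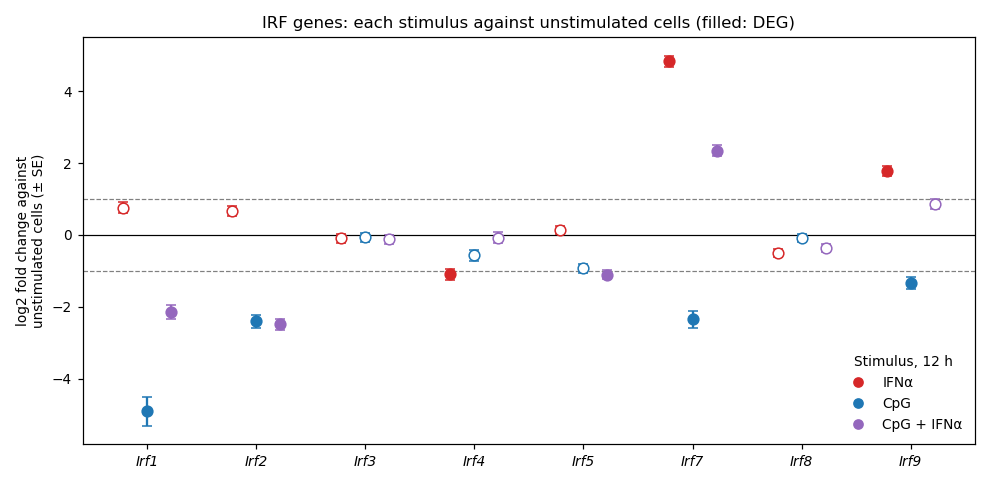
Log2 fold change of each IRF gene (x axis) against unstimulated cells with its SE (y axis), for IFNα, CpG and CpG + IFNα, with DEGs as filled points and the fold threshold as dashed lines. Irf7 is at 4.83 with IFNα and -2.35 with CpG, Irf1 reaches -4.91 with CpG, and Irf3 stays within the dashed lines for every stimulus.

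The interaction asked whether IFNα acted differently in cells that also received CpG, as the log2 fold change of CpG + IFNα against CpG minus that of IFNα against unstimulated cells. Irf1 and Irf4 passed the DEG thresholds, 2 of 8 genes, both upward, where 3.09% of all tested genes were called upward and 3.17% downward. For Irf1 the interaction was 2.01 ± 0.43 on the log2 scale (adjusted p = 0.000567), from an effect of 0.76 without CpG and 2.77 with it. For Irf4 it was 1.58 ± 0.22 (adjusted p = 5.06e-06), from -1.10 without CpG and 0.48 with it. Leaving out each sample in turn kept both as DEGs, between 1.71 and 2.70 for Irf1 and between 1.28 and 1.75 for Irf4. The highest for Irf1 came without CpG replicate 1, and the lowest came without CpG replicate 2 for Irf1 and without unstimulated replicate 1 for Irf4. In the term without CpG the stimulus and the culture cannot be told apart.

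Irf7 and Irf9 did not pass the adjusted threshold of the interaction. The interaction was -0.13 for Irf7, with a 95% confidence interval of -0.68 to 0.42 (adjusted p = 0.854), and 0.42 for Irf9, with an interval of 0.01 to 0.83 (adjusted p = 0.2). Irf2 had an interaction of -0.75 ± 0.23 (adjusted p = 0.0375), under the fold threshold, with adjusted p between 0.00477 and 0.173 over the other settings. For Irf3, Irf5 and Irf8 it was 0.05, -0.31 and 0.22, with adjusted p-values of 0.919, 0.264 and 0.414.

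**Figure D5:**
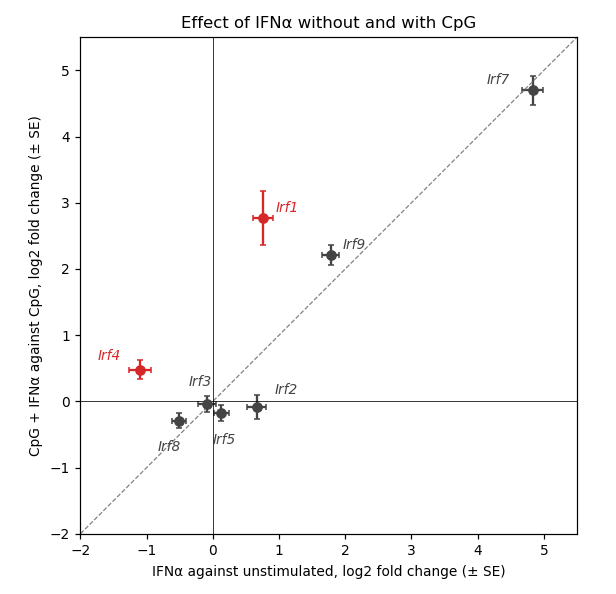
Log2 fold change (± SE) of IFNα against unstimulated cells (x axis) and of CpG + IFNα against CpG (y axis) for each IRF gene, with the line of equal effects dashed and DEGs of the interaction in red. Irf7 and Irf9 lie near the line, and Irf1 and Irf4 lie above it, with Irf4 at -1.10 without CpG and 0.48 with CpG.

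Of 24 symbols listed for sensors, adaptors and kinases upstream of IRF3, IRF5 and IRF7, 21 were tested. The list held Cgas also under a second symbol, Mb21d1, and the adaptor STING only under an older symbol, Tmem173. Neither of these symbols was in the count table, so that STING is missing from the counts below. The paper reports Sting1, its newer symbol, as lower with CpG + IFNα than with CpG. With IFNα against unstimulated cells 7 rose and none fell by edgeR or DESeq2, with 4 lower at an unadjusted p under 0.05, where 4.56% of all tested genes rose and 4.07% fell. With CpG 1 rose and 8 fell, where the shares over all tested genes were 20.1% and 25.5%. With CpG + IFNα against CpG, where they were 2.95% and 2.01%, 5 of the 21 rose and none of them fell by edgeR or DESeq2. Of the 21, 2 were lower at an unadjusted p under 0.05. The 5 were the RNA and DNA sensors Ddx58 (3.73 ± 0.26), Ifih1 (4.22 ± 0.50), Tlr3 (2.02 ± 0.75), Tlr7 (3.11 ± 0.31) and Cgas (3.43 ± 0.59). Behind these stand few counts with CpG, 0 to 3 per sample for Tlr3, 1 to 4 for Cgas, 3 to 6 for Ifih1 and 8 to 9 for Tlr7. The median of the list in that comparison was 0.24, against -0.04 over all genes. Tlr9 rose with IFNα (1.20 ± 0.12), and the count of Tlr9 used an annotation that the authors extended. Its log2 fold change was -0.45 ± 0.13 with CpG and 0.68 ± 0.12 for CpG + IFNα against CpG, both under the threshold. The transporter Slc15a4, which IRF5 activation needs, and the chaperone Unc93b1 fell with CpG, with -2.37 ± 0.22 and -1.10 ± 0.12. The kinase Tbk1 was not a DEG in any of these comparisons, at 0.41, -0.26 and 0.43.

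Of 14 listed partners with which IRF9, IRF4 and IRF8 bind DNA, 12 were tested. With CpG + IFNα against CpG 2 rose, where 2.95% of all tested genes did, among them Stat2, by 3.33 ± 0.28. None of the 12 fell in that comparison by edgeR or DESeq2, and 4 were lower at an unadjusted p under 0.05. Stat2 also rose with IFNα alone (2.78) and fell with CpG (-3.49), the directions of Irf7 and Irf9. With CpG against unstimulated cells 9 of the 12 fell, where 25.5% of all tested genes did. They included the ETS partners Spib (-2.67 ± 0.13) and Spi1 (-1.54 ± 0.13) and the Ikaros factors Ikzf1 (-1.42 ± 0.12) and Ikzf3 (-1.95 ± 0.13). Batf, an AP-1 partner of IRF4 and IRF8, was the single gene of the list that rose with CpG, by 3.53 ± 0.20, and its log2 fold change was -0.17 ± 0.12 when IFNα was added (adjusted p = 0.408). Jun, Junb and Jund, 3 of the 12, were called upward in the interaction, at 4.63, 4.34 and 1.15, where 3.09% of all tested genes were. Their log2 fold changes were 0.46, 0.38 and -0.23 for CpG + IFNα against CpG. For IFNα against unstimulated cells they were -4.17, -3.96 and -1.39.

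All 10 listed inhibitors of IRF activity and IRF2-binding proteins were tested. In CpG + IFNα against CpG none fell by edgeR or DESeq2, with 2 lower at an unadjusted p under 0.05, and 3 rose, where 2.95% of all tested genes did, namely Socs1 (3.19 ± 0.33), which blocks the interferon receptor, Trafd1 (2.56 ± 0.17) and the ubiquitin ligase Trim21 (2.07 ± 0.32). The same 3 rose with IFNα alone, where 4.56% of all tested genes did. The IRF2 co-repressor Irf2bpl fell with CpG (-2.24 ± 0.19), while Irf2bp1 and Irf2bp2 had -0.19 ± 0.19 and -0.15 ± 0.18.

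Of 30 interferon-stimulated genes with ISREs in the list, all 30 rose with IFNα and all 30 rose with CpG + IFNα against CpG, where 4.56% and 2.95% of all tested genes rose. Their median log2 fold changes were 4.13 and 4.84, and the latter was 4.62 with Parp12, which had no count in any CpG sample, set at a floor of 3 counts per library. With CpG alone 24 fell, with a median of -2.10, where 25.5% of all tested genes fell and 20.1% rose. None rose by edgeR or DESeq2, with 1 higher at an unadjusted p under 0.05. Among the 24, Parp12, Ifi44 and Oas1a passed the filter on low counts only through the conditions with IFNα. Parp12 had 0 to 2 counts per unstimulated sample and 0 with CpG, Ifi44 1 to 3 and 0 to 1, and Oas1a 2 to 4 and 0 to 1. Against IFNα, CpG + IFNα left 19 of the 30 lower and 1 higher, with a median of -1.41, where 25.5% of all tested genes fell and 18.7% rose. Irf7 was -2.48 and Irf9 -0.91 in the same comparison. Membership of this list was chosen knowing that such genes respond to interferon, and it is a description of the response and not separate evidence of it.

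Of 16 listed B cell genes that IRF4 or IRF8 is known to regulate, 14 were tested. Against unstimulated cells CpG lowered 8 and raised 1, Myc (1.66 ± 0.14), where 25.5% of all tested genes fell and 20.1% rose. Adding IFNα to CpG gave 1 DEG among the 14, Fcer2a, which encodes CD23 and fell by 1.41 ± 0.30, where 2.01% of all tested genes fell. None was a DEG upward by edgeR or DESeq2. At an unadjusted p under 0.05, 2 were higher and 7 lower, and the share of all tested genes at that threshold was not counted. Cd40 (0.78 ± 0.12), Spib (-0.73 ± 0.15), Bach2 (-0.54 ± 0.15), Ebf1 (-0.41 ± 0.12) and Ciita (-0.67 ± 0.24) passed the adjusted p threshold with changes smaller than 2-fold. The germinal center repressor Bcl6 had a log2 fold change of 0.05 ± 0.19 and Pax5, the B cell identity factor, of 0.00 ± 0.11 in that comparison. Myc, Tnfaip3 and Cd40, 3 of the 14, were called upward in the interaction, at 2.60, 2.57 and 1.43, where 3.09% of all tested genes were. For Myc and Tnfaip3 the log2 fold change with IFNα was -2.28 and -2.52 without CpG. With CpG it was 0.32 and 0.06, and neither passed the p-value threshold. For Cd40 it was -0.65 without CpG and 0.78 with it. In the terms without CpG the stimulus and the culture cannot be told apart. The plasma cell gene Prdm1 was not tested because of its low counts. Of 12 listed interferons, receptors and kinases, 6 receptors and kinases were tested. None was a DEG by edgeR or DESeq2 with IFNα, where 2 were higher and 2 lower at an unadjusted p under 0.05, or when IFNα was added to CpG, where 0 were higher and 3 lower. Over all tested genes 4.56% rose and 4.07% fell in the former comparison, and 2.95% rose and 2.01% fell in the latter. With CpG 4 of the 6 fell, where 25.5% of all tested genes did, among them Ifnar1 (-1.33 ± 0.23) and Tyk2 (-1.59 ± 0.20).

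The genes whose levels followed each IRF gene most closely were found by Pearson's r of log2(CPM + 1) over the 12 samples, which share their conditions, so that r describes the pattern over conditions. For Irf7 these were Ifit3, Oasl2 and Nmi, with r from 0.9937 to 0.997, and for Irf9 they were Parp9, Rnf213 and Trim12c, from 0.9922 to 0.9935. For Irf1 they were Treml2, Serpina3g and Snx2, from 0.9827 to 0.9915. For Irf2 they were Zfp943, B3gnt5 and Ssh2, and for Irf5 Dcaf12, Ptprcap and Arpc1b, all between 0.9896 and 0.9918. Irf4 was followed less closely, by Ehd1, Sec24a and Impact, from 0.8939 to 0.9366, and Irf8 by Lmo2, Arhgdia and Ezr, from 0.908 to 0.946. Irf3, which hardly varied, had the loosest fits, Pde4dip, Pex6 and Gm43668, from 0.7922 to 0.8713. Among the IRF genes themselves r was 0.98 between Irf7 and Irf9, 0.97 between Irf2 and Irf5, and -0.81 between Irf7 and Irf8.

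Plasmacytoid dendritic cells express much Irf7 and Irf8, and their markers were therefore checked. Of the 4, Siglech and Klk1 had no count in any sample, and the list summed to 32.1 to 49.3 CPM without CpG and 2.57 to 5.17 CPM with CpG. Pacsin1 held most of its counts without CpG, and with CpG it had 7 counts against 11 of Ccr9, and with CpG + IFNα 8 against 21. Markers of conventional dendritic cells summed to between 3.27 and 14.3 CPM, and those of NK cells to at most 1.23 CPM. Erythroid markers summed to between 9.16 and 270 CPM without CpG and between 1.03 and 49.6 CPM with CpG.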

How the data were processed

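RNA of FO B cells was measured in 12 samples, 3 in each of 4 conditions, which were taken from the labels. The deposited table holds raw UMI counts for each gene, without normalization. Per the methods and the submitters' processing notes, reads were handled with UMI-tools 1.1.2, trimmed with Trim Galore 0.6.7, mapped to GRCm38 with HISAT2 2.2.1 and assigned with featureCounts 2.0.1, after which unique UMIs were counted. The annotation release is not given in the sources used here, and all 22561 identifiers matched GENCODE M21, which gave the positions. The setting for strand in the counting is not given either.

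On these counts, edgeR 4.0.16 (R 4.3.3) scaled samples by TMM, removed genes of low count with filterByExpr and tested 9431 genes in 1 quasi-likelihood fit of the 4 conditions with 8 residual degrees of freedom. Adjusted p-values are Benjamini-Hochberg values over all tested genes. Shares of all tested genes are given for the DEG thresholds only and were not counted at an unadjusted p under 0.05. The standard error is that of the fitted coefficient. Of the 22561 genes, 2220 had no count. Replicates differed by more than counting noise, with a chi-square per degree of freedom of 2.02 to 7. The alternatives were RLE scaling, library size only, removal of mitochondrial and ribosomal RNA genes, no filter, DESeq2 1.42.0, a log2 fold change over 2, only the groups compared, a replicate block and leaving out each sample. Ratios of counts were compared by exact permutation. UMIs limit duplicates, and the floor of 3 counts covers counting error only.

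The IRF genes, the lists, the markers and the promoter words were chosen with earlier results of these data known. Named genes are the 8 IRF genes, the 3 genes most alike to each, and list members that were DEGs in CpG + IFNα against CpG or bear on an IRF gene as partner, activator or target. Genes overlapping an IRF gene were named for their position. Some listed genes and 1 promoter word are not reported here. The 2 ratios were added after the data were seen.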

Additional observations from a re-analysis of the deposited data

Results flagged for a closer look

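The effect of IFNα on Irf1 and on Irf4 differed between cells with and without CpG by the test of the interaction, the only 2 of 8 IRF genes to pass its thresholds. For Irf1 the difference was 2.01 on the log2 scale (adjusted p = 0.000567), from 0.76 without CpG and 2.77 with it, where the CpG samples held 10, 2 and 5 counts. For Irf4 the difference was 1.58 (adjusted p = 5.06e-06), from -1.10 without CpG and 0.48 with it, and it was 1.28 without unstimulated replicate 1. In the terms without CpG the stimulus and the culture cannot be told apart. With 3 samples in each condition, no sample was tested for standing apart from its condition.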

How the results depend on the processing

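For the 8 IRF genes in 7 comparisons, 1112 values were recomputed, of which 1070 kept their direction and call. With a log2 fold change over 2 as threshold, the number of IRF genes called became 1 instead of 3 for IFNα against unstimulated cells, 3 instead of 5 for CpG + IFNα against IFNα and 1 instead of 2 for the interaction, where Irf4 was lost. It also became 3 instead of 4 for CpG (Irf9 at -1.34 lost) and for CpG + IFNα (Irf5 at -1.11), both against unstimulated cells, and 4 instead of 5 for CpG against IFNα (Irf5 at -1.06). In all, 25 values changed sign, and none of these was called. Of them 17 came from leaving out a sample and lie in the ranges given next. The others were Irf3 in CpG against IFNα with RLE scaling (-0.01), DESeq2 (-0.01) and only the groups compared (-0.03), Irf3 in CpG + IFNα against IFNα with library size only (0.02), without mitochondrial and ribosomal RNA genes (0.02) and without the filter (0.09), and, without the filter, Irf3 in CpG + IFNα against CpG (0.02) and Irf4 in CpG + IFNα against unstimulated cells (0.03).

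Leaving out each sample gave ranges across 0 for Irf3 in CpG against IFNα (-0.03 to 0.09), CpG + IFNα against IFNα (-0.08 to 0.04), CpG against unstimulated cells (-0.17 to 0.01) and the interaction (-0.03 to 0.20), for Irf4 in CpG + IFNα against unstimulated cells (-0.24 to 0.23), for Irf2 in CpG + IFNα against CpG (-0.27 to 0.08), for Irf7 in the interaction (-0.27 to 0.10) and for Irf8 in CpG against unstimulated cells (-0.12 to 0.02). Calls near the 2-fold threshold were lost for Irf4 in IFNα against unstimulated cells (-0.80 without unstimulated replicate 1), for Irf4 in CpG + IFNα against IFNα, for Irf5 in CpG against IFNα (-1 with library size only, without IFNα replicate 1 or without CpG replicate 2) and for Irf5 in CpG + IFNα against unstimulated cells (-0.99 without the filter or without CpG + IFNα replicate 2). The cause was not tested. The ratio of Irf4 to Irf8 in CpG + IFNα against CpG, as a log2 difference of 0.77, ranged from 0.69 to 0.86 without each sample, and that of Irf1 to Irf2, 3.13, from 2.57 to 3.91, chosen after the data were seen.

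With the replicate number as a block, all 56 values kept their direction and call, with 3, 4, 4, 3, 5, 5 and 2 IRF genes called in the 7 comparisons. Samples of the same number correlated in their deviations from the condition means between -0.065 and 0.201, and those of different number between -0.2 and 0.054, and among the 3 stimulated conditions same-numbered samples lay between 0.009 and 0.201. Since not every such pair was over 0.1 and the labels tie no number to an animal, the numbers were not taken as pairs. The fit of only the groups compared gives no interaction, which needs all 4 conditions. Depth limits Irf1 with CpG most, at 2 to 10 counts.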
